A study of Mus musculus with 3 samples.

Results

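The Hox genes encode homeodomain transcription factors that give cells their position along the body axis, and in the mouse they lie in 4 clusters, HoxA, HoxB, HoxC and HoxD. Members were every gene whose symbol in the array's annotation is Hoxa, Hoxb, Hoxc or Hoxd followed only by a number. The rule itself uses no measured value, though it was chosen with earlier results of these data known. Dim probe sets were included. Of the 39 Hox genes in the mouse gene table, 33 had at least 1 probe set naming that gene alone. They account for 48 of 45037 probe sets and 33 of 18193 genes. No gene value is given for the remaining 6.

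The study asked how transcription in mouse embryonic stem (ES) cells changes once Oct3/4, the product of Pou5f1 and a central factor of pluripotency, is lost. The same kind of cell, an ES cell with a conditional Pou5f1 knockout, was profiled as total RNA on Affymetrix arrays at day 0, day 1 and day 2. There was 1 array per day. All 3 groups carry the conditional allele, and day 0 is the only reference. The sources used here do not give the strain, the number of clones, the agent that triggers the deletion or the presence of feeder cells. No array of untreated cells kept to day 1 or day 2 was used, so the loss of Oct3/4, the time in culture and any triggering agent cannot be told apart. A single array per day gives neither a replicate error nor a test. How far the probe sets of 1 gene differ was used as the only measure of error.

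Genes within a Hox cluster carry numbers from 1 to 13. Genes of the same number in different clusters, called paralogues, descend from a common ancestor. In the embryo the low-numbered genes at the 3′ end of a cluster switch on early and towards the head, and the high-numbered genes at the 5′ end follow later and towards the tail. In ES cells the clusters are held silent by Polycomb complexes while also carrying marks of activity. Retinoic acid, Wnt and FGF signals, together with Cdx factors, open them as the posterior body forms.

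Signals are linear array intensities without a unit. A signal depends on the probes as well as on the RNA, so signals are compared here between days within 1 probe set and not between genes. A signal was called dim below 55.9, a constant set at the 40th percentile of the signals pooled over the 3 arrays. Differences are log2(signal + 55.9), later day minus earlier day, and understate the change of dim genes. A gene was counted as higher or lower when this difference reached 2-fold. Where a gene had several probe sets, the 1 with the highest mean signal stood for it. The pooled SD between probe sets of 1 gene, over 9010 genes, was 0.39 in log2 between day 2 and day 0, and 0.35 between either of them and day 1. For the 11 Hox genes with several probe sets the corresponding values were 0.43, 0.38 (day 1 and day 0) and 0.30 (day 2 and day 1). Variation between cultures or arrays is not part of it.

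The targeted gene was checked first. Pou5f1 went from a signal of 2400 at day 0 to 40.8 at day 1 and 15.5 at day 2, so it was above the constant on the day 0 array alone. Its difference was -4.67 at day 1 and -5.10 at day 2. All 5 ES cell markers, Pou5f1 among them, were at least 2-fold lower at day 2 than at day 0. Of 6 trophectoderm markers, genes of the outer layer of the early embryo, 4 were at least 2-fold higher at day 2. Of 4 primitive endoderm markers, 2 were, and none of 5 measured mesoderm markers and none of 4 neural markers was. Of all genes, 4.05% were at least 2-fold higher at day 2 than at day 0 and 4.3% lower. The arrays resembled each other over all probe sets, with correlations of log2 signals between 0.959 and 0.974. The day 2 column differs from the others in its number format, and the sources used here do not say whether that array was processed apart.

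Promoter sequence gives the context in which these genes sit. The RefSeq promoter table for build GRCm38.p6 holds 21 windows for 19 of the 33 measured Hox genes. Each window runs from 250 bases before the start of a gene to 50 after it. CG dinucleotides, frequent in promoters that Polycomb complexes hold silent, had a median of 13 in the 250 bases before a Hox start, with a range of 2 to 35. The median over all 32851 windows was 6.0. Of the 7 Hox genes described in full below, Hoxd9, Hoxa5 and Hoxa9 have an entry. Their 250 bases before the start are shown because the 3 genes span most of the Hox range in CG dinucleotides. They are written 5′ to 3′ along the gene, with each CG in capitals.

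Hoxd9 chr2:74697513-74697762, plus strand: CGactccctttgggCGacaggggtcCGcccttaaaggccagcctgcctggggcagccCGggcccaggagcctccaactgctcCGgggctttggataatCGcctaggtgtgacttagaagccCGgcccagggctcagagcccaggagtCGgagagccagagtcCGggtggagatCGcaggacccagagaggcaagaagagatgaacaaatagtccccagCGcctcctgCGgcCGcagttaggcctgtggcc

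Hoxa5 chr6:52204588-52204837, minus strand: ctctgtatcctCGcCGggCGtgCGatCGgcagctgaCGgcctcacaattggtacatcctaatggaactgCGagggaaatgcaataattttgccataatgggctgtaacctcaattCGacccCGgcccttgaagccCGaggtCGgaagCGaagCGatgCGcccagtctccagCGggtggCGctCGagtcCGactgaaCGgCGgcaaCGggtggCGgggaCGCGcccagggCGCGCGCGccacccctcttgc

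Hoxa9 chr6:52227371-52227620, minus strand: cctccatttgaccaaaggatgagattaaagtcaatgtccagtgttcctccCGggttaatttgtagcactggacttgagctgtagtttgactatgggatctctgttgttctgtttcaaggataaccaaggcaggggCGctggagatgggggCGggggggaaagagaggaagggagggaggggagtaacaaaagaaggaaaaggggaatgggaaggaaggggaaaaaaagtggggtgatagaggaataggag

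The Hoxa5 stretch holds 28 CG dinucleotides, the Hoxd9 stretch 13 and the Hoxa9 stretch 3. Hoxa5 and Hoxa9 thus lie on opposite sides of the median over all windows, although both belong to HoxA. Motifs were searched in the whole 300-base windows on both strands. TTTATG, a sequence that Cdx factors can bind, was found in 3 of 21 Hox windows, those of Hoxa7 and Hoxd3 and 1 of Hoxd11, or 14.3%, against 11.9% of all windows. TTTATTG, a related sequence, was found in 0, against 4.60% of all windows. The octamer ATGCAAAT, the classical binding sequence of Oct factors, was in 0 of 21, against 1.74% of all windows. TATAAA, the TATA box, was in 2, or 9.52%, against 13.6%. The end of TTTATG and the start of ATGCAAAT can overlap. A match describes letters in the window and shows no binding.

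On each day most Hox genes gave dim signals. At day 0, 5 of 33 genes reached the constant, or 15.2%, against 68.6% of all 18193 genes. At day 1 and at day 2 the number was 10, or 30.3%, against 71.0% and 69.6% of all genes. On all 3 arrays 16 Hox genes lay below the constant by the probe set that stands for them, and 15 by all their probe sets. The signal at day 0 ran from 2.10 for Hoxb5 and Hoxb6 to 305 for the probe set that stands for Hoxa5. The median Hox signal moved from 25.2 at day 0 to 43.8 at day 1 and 38.3 at day 2, while the median of all genes was 174, 181 and 173.

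**Figure D1:**
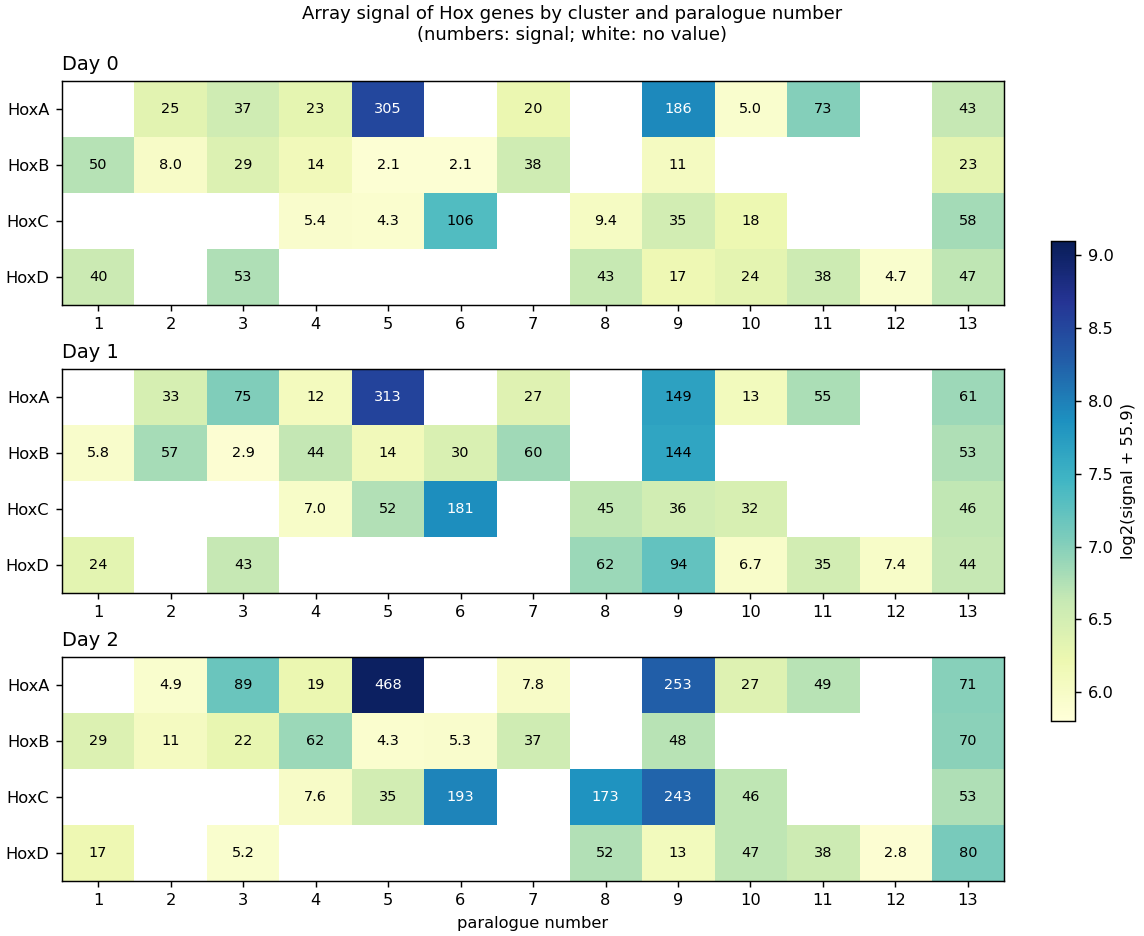
Signals of the 33 measured Hox genes by cluster and paralogue number, 1 panel per day, with the array signal as a number, log2(signal + 55.9) as the colour, white cells where there is no value. HoxC genes at positions 8 and 9 are dim at day 0 (9.40 and 35.0) and stand at 173 and 243 at day 2, while Hoxb9 and Hoxd9 are highest at day 1. Shades of different genes come from different probes and do not rank the genes.

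At day 2, Hoxc8 and Hoxc9 were the only Hox genes at least 2-fold higher than at day 0, and none was at least 2-fold lower. That is 2 of 33, or 6.06%, where 4.05% of all genes were higher and 4.3% lower. At day 1, Hoxb9 and Hoxd9 were at least 2-fold higher than at day 0, again 2 of 33 and 6.06%, beside 2.07% of all genes. None was lower, beside 2.02% of all genes. From day 1 to day 2, Hoxc8 and Hoxc9 were higher, 6.06% beside 1.76% of all genes, and Hoxd9 was lower, 3.03% beside 2.28%. Counts of at most 2 in 33 are too small to set against these shares, so they show nothing particular to the Hox genes. The median Hox difference for day 2 against day 0 was 0.08, and 21 of 33 genes, 63.6%, were above 0. Over all genes the median was 0.04 with 54.3% above 0.

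**Figure D2:**
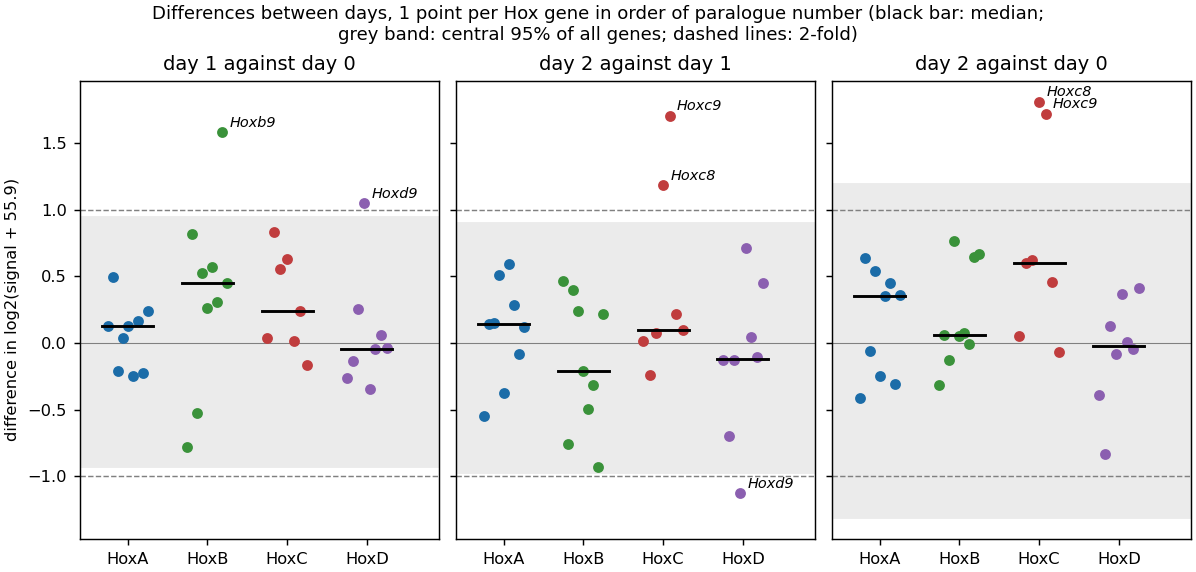
Log2 difference of each Hox gene between days, arranged by cluster, with cluster medians as black bars, dashed 2-fold lines and a grey band for the central 95% of all 18193 genes. For day 2 against day 0 that range is -1.31 to 1.19, and of the Hox genes Hoxc8 at 1.81 and Hoxc9 at 1.72 lie outside it.

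The HoxC cluster had the highest median difference of the 4 at day 2, 0.60 over 7 measured genes, though it was 0.26 with a constant at the 60th percentile and 0.00 with a floor in its place. The median is the value of Hoxc5, whose probe sets differ in sign, and without that gene it was 0.54 with 5 of 6 above 0. For 6 of the 7 the difference was above 0, and for 5 of 7 the signal was higher at each step, against 24.5% of all genes. The 5 include Hoxc4, dim throughout with steps of 0.04 and 0.01, and Hoxc9, whose first step was 0.01. They also include Hoxc6, of which another probe set was lower at day 2 than at day 1. Hoxc8, which patterns the thoracic region and its motor neurons, went from 9.40 at day 0 to 45.0 at day 1 and 173 at day 2. Its signal was thus below the constant on the first arrays and above it on the last. The difference was 0.63 at day 1 and 1.81 at day 2, or 3.50-fold after the constant was added, and 100 of 18193 genes had a larger one at day 2. From day 1 to day 2 it was 1.18, or 0.72 when the constant was the 60th percentile of signals, 151, which is under 2-fold. Hoxc8 has 1 probe set, so its own probe error is not known.

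Hoxc9, which acts at the level of the thoracic spinal cord and represses more rostral Hox genes there, gave a different course. It had 35.0 at day 0, 35.9 at day 1 and 243 at day 2. The first values lie close together, and the day 2 value stands apart from both. The difference was 0.01 at day 1 and 1.72 at day 2, or 3.29-fold, with 126 genes larger. From day 1 to day 2 it was 1.70, with 44 genes larger. It too has 1 probe set. When every signal below the constant was raised to it and none was added, the day 2 signals lay 3.09-fold above that floor for Hoxc8 and 4.35-fold above it for Hoxc9.

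These neighbours share 1 array for their high values, so the day and the array cannot be told apart. Markers of fibroblasts, a cell type used as feeder for ES cells, were read beside these results. Of 14 fibroblast or feeder markers, 13 were measured, and 5 reached the constant at day 0, 3 at day 1 and 5 at day 2. Their summed signal was 885, 785 and 750 in that order, and without Thy1, a surface protein that was lower at -1.65, it was 485, 510 and 661. For day 2 against day 0, 8 of the 13 were above 0, with a median of 0.23, and none was at least 2-fold higher. Among them were Lum at 0.85, Pdgfrb at 0.62, Twist2 at 0.41, Prrx1 at 0.40, Col1a2 at 0.26 and Pdgfra at 0.23. Below 0 besides Thy1 were Col3a1 at -0.70, Col1a1 at -0.16, S100a4 at -0.14 and Postn at -0.13. Other probe sets went as low as -0.68 for Prrx1 and -0.47 for Col1a2, and as high as 1.20 for Pdgfra. Col1a1, the defining collagen, stayed below the constant with 36.2, 33.8 and 26.3, and its other probe set was at 0.59. The part of such cells in the Hox values was not tested. In whole cultures, a change in the number of cells of a type and a change in RNA per cell cannot be told apart.

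The other HoxC genes were smaller in change or dim. Hoxc6, a gene of the forelimb and upper thoracic level, had 3 probe sets. The 1 that stands for it had 106 at day 0, 181 at day 1 and 193 at day 2, a difference of 0.63. The second had 127, 149 and 142, a difference of 0.12, and the third 5.00, 29.4 and 49.7, a difference of 0.79. All were higher at day 2 than at day 0, by amounts from 0.12 to 0.79. The first is of a type, marked _x_at, whose probes can also match other sequences.

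Hoxc5, its neighbour, had 3 probe sets that went different ways, at 0.60, 1.00 and -0.56 for day 2 against day 0. The first had signals of 4.30, 51.5 and 35.2, the second 1.90, 10.8 and 59.3, and the last 33.3, 10.1 and 4.50. No direction can be given for this gene. Hoxc10, a gene of the lumbar level and hindlimb, had 18.3, 31.9 and 46.0, all below the constant. Hoxc4 stayed between 5.40 and 7.60, and Hoxc13, which acts in hair and nails, lay between 45.5 and 58.1 with a difference of -0.07.

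**Figure D3:**
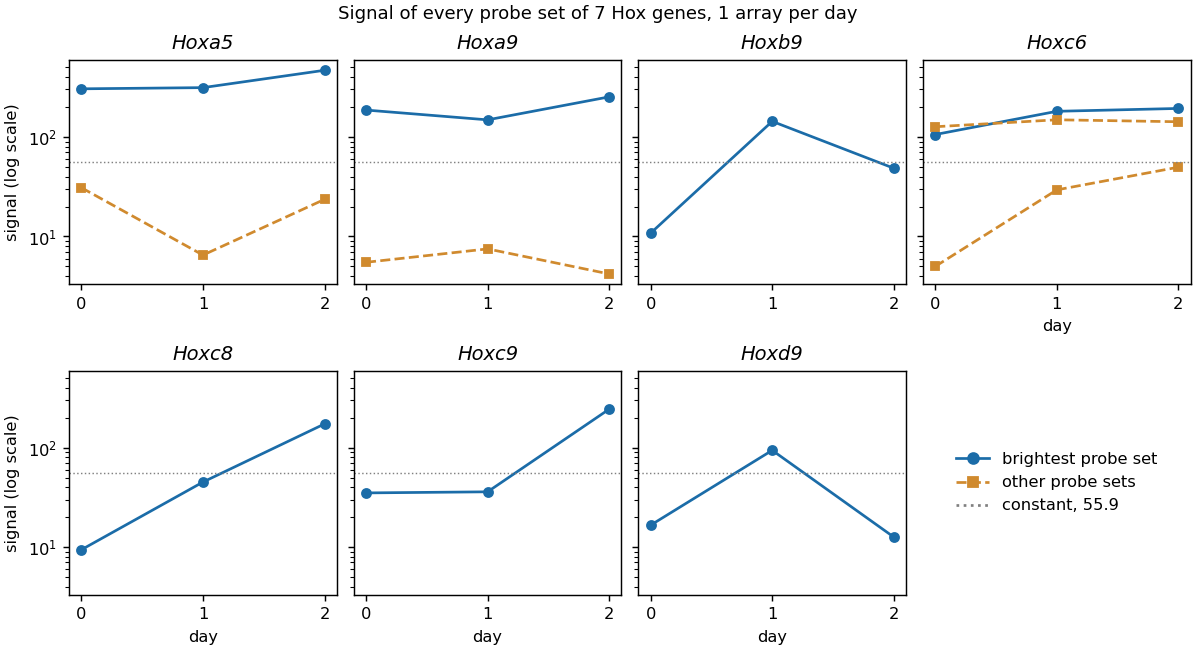
Signal of every probe set of the 7 genes described in full, by day, on a log axis, with the constant of 55.9 as a line. The single probe sets of Hoxc8 and Hoxc9 cross the line between day 1 and day 2, those of Hoxb9 and Hoxd9 are above it at day 1 alone, and for Hoxa5 and Hoxa9 the second probe set stays below it.

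In HoxB, more genes stood above the constant on the day 1 array than on either other array. Of 9 measured genes, 0 reached the constant at day 0, 3 at day 1 and 2 at day 2. Of the 3, Hoxb2 at 56.7 and Hoxb7 at 59.8 passed it narrowly. A probe set that names both Hoxb8 and Hoxb7, not counted here, had 36.8, 16.7 and 21.4, all below the constant. Of all genes below it at day 0, 20.6% reached it at day 1 and 19.1% at day 2. The median HoxB difference was 0.45 at day 1 against day 0 and -0.21 from day 1 to day 2. The signal was highest at day 1 for 5 of 9. That shape was seen in 31.2% of all genes and 40.8% of genes below the constant at day 0. Lowest at day 1 were Hoxb1 and Hoxb3. The latter had 28.7, 2.90 and 21.6, and 11.3, 17.2 and 15.3 on its other probe set. Hoxb9, which with its paralogues shapes the thoracic skeleton and mammary gland, had 10.8 at day 0, 144 at day 1 and 48.5 at day 2. The day 1 value alone lies above the constant. Its difference was 1.58 at day 1, or 2.99-fold, with 35 genes larger, and -0.93 from day 1 to day 2. With the constant at the 60th percentile the day 1 difference was 0.86. Against day 0, day 2 was 0.65 higher.

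Hoxb2, a gene of the hindbrain, had a similar shape with 8.0, 56.7 and 10.7, a difference of 0.82 at day 1. Hoxb6 had 2.10, 30.2 and 5.30, and Hoxb5 had 2.10, 13.8 and 4.30. All of these lie at or under the constant, except the day 1 value of Hoxb2, which passes it narrowly. Hoxb4, which can expand blood stem cells when overexpressed, was higher at each step. Its probe sets, designed on the same sequence, had 13.5, 44.0 and 61.8 and 11.3, 31.7 and 52.8. Their differences for day 2 against day 0, 0.76 and 0.69, were close. Hoxb13, a gene of the tail end and the prostate, had 23.4, 52.5 and 70.0, a difference of 0.67. Hoxb1, the earliest gene of the cluster and a direct target of retinoic acid, went from 49.9 to 5.80 and then 29.1, below the constant throughout.

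The HoxD cluster had no measured gene at the constant at day 0, 2 at day 1 and 1 at day 2, of 8. Its median difference was -0.04 at day 1 and -0.02 at day 2 against day 0. Hoxd9, a gene of the limb and lumbar region, had 16.6 at day 0, 93.8 at day 1 and 12.6 at day 2. Day 1 stands apart from both other days. Its difference was 1.05 at day 1, or 2.06-fold, with 303 genes larger, and -1.13 from day 1 to day 2. The day 1 value sits at the edge of the rule: it was 0.98 after quantile normalization, 0.99 with ribosomal protein genes set equal, 0.75 with a floor in place of the constant and 0.55 with the constant at the 60th percentile. From day 1 to day 2 it was -0.58 with the constant at the 60th percentile and -0.75 with a floor.

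Hoxd3, which with its HoxA paralogue shapes the first neck vertebrae, had 53.1, 43.3 and 5.20. Its difference of -0.84 was the lowest of the 33 genes, and its signal stayed below the constant. Hoxd13, which patterns the digits, had 46.6, 43.8 and 80.2 on its first probe set, a difference of 0.41, and 6.0, 6.60 and 3.80 on its other. Hoxd12 stayed between 2.80 and 7.40. No HoxD gene was higher at each step.

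HoxA held 3 of the 5 Hox genes at the constant at day 0, and 4 of 9 at day 1 and at day 2. None of its genes reached 2-fold in any pair of days. Hoxa5, which is needed for lung and airway formation, had 305 at day 0, 313 at day 1 and 468 at day 2, a difference of 0.54 at day 2. Its other probe set had 30.9, 6.50 and 23.6, a difference of -0.13. The first is again of the _x_at type. The probe sets of this gene thus differ in sign. Hoxa9, a gene of the lumbar level and of blood stem cells, had 186, 149 and 253, a difference of 0.35, and its other probe set had 5.50, 7.50 and 4.20. The day 1 array was the lowest for the first probe set and the highest for the second, which stayed far below the constant.

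Hoxa3, a gene of the thymus and parathyroid, had 4 probe sets with differences of 0.64, 0.14, -0.26 and -0.36 for day 2 against day 0. The mean over them was 0.04. Without probe sets of the _x_at, _s_at and _a_at types the HoxA median turned from 0.35 to -0.12, so no common direction can be given for the cluster. Among the 11 Hox genes with several probe sets, all probe sets had the same sign for day 2 against day 0 in 4, Hoxa4, Hoxb4, Hoxc6 and Hoxd8.

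Set out by position, the paralogues 1 to 4 had a median difference of -0.09 for day 2 against day 0 over 10 genes, with 4 above 0. The 9 genes of paralogues 5 to 8 had 0.13, with 7 above 0, and the 14 genes of paralogues 9 to 13 had 0.36, with 10 above 0. The spread inside each of these ranges is wider than the gap between them, and a gradient along the clusters was not tested. For day 1 against day 0 all 9 genes of paralogues 5 to 8 were above 0, with a median of 0.30, where 55.7% of all genes were above 0 and 64.6% of genes below the constant at day 0. Over all their 15 probe sets, 13 were above 0. The exceptions were the other probe set of Hoxa5 at -0.48 and 1 of Hoxc5 at -0.43. A probe set that names both Hoxb8 and Hoxb7 is not in this count. It was at -0.35, where the probe set of Hoxb7 alone was at 0.30. In paralogue group 9, all 4 genes were measured. Their differences at day 2 were 0.35 for Hoxa9, 0.65 for Hoxb9, 1.72 for Hoxc9 and -0.08 for Hoxd9, and 3 of the 4 reached the constant at day 1. The peak lay at day 1 for Hoxb9 and Hoxd9 and at day 2 for Hoxc9 and Hoxa9.

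The other 26 genes had signals from 2.10 to 73.3 at day 0, from 2.90 to 75.0 at day 1 and from 2.80 to 88.9 at day 2. Their differences for day 2 against day 0 ran from -0.84 to 0.76. These genes are what the rule for full description left over. By that rule none could reach 2-fold in any pair of days or a signal of 151. The 23 Hox genes with a mean signal below the constant had a median difference of 0.00, with 12 above 0. The 10 with a mean at or above it had 0.58, with 9 above 0. A gene that is high on 1 array can enter the second group through that array, so this split supports no direction. Crossing the constant is itself common: of 5714 genes below it at day 0, 20.6% reached it at day 1 and 19.1% at day 2. Of the 28 Hox genes below it at day 0, 7 did so at day 1 and 7 at day 2.

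The genes beside the clusters served as a comparison of place. Of 30 measured neighbours, all within 1 Mb of a cluster, 26 reached the constant at day 0, 27 at day 1 and 26 at day 2. Their median difference for day 2 against day 0 was -0.05. None was at least 2-fold higher, and 2 were lower, Cbx1 at -1.14 and Nfe2 at -1.30. Nfe2, an erythroid transcription factor beside HoxC, had 101 at day 0, 59.9 at day 1 and 7.90 at day 2, the opposite course to Hoxc8. Its difference was -0.67 with the constant at the 60th percentile and -0.85 with a floor. Cbx1, a heterochromatin protein gene beside HoxB, was at -0.18 without probe sets of the _x_at, _s_at and _a_at types and at -0.62 as a mean over its probe sets. Evx1, the homeobox gene at the end of HoxA, had 11.2, 14.3 and 67.5, a difference of 0.88.

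Of 13 listed noncoding RNAs of the clusters, 4 were measured. Hoxd3os1, antisense to Hoxd3, had 119 at day 0, 12.5 at day 1 and 7.10 at day 2, a difference of -1.47 at day 2. It was -0.77 with the constant at the 60th percentile. Its other probe set had 41.6, 1.90 and 5.50, a difference of -0.67. Both were lower on the later arrays than at day 0, and Hoxd3 itself was lower at day 2. Whether a probe set sees the sense or the antisense strand was not examined. Gm15050, a noncoding RNA of the HoxA cluster, had 17.7, 122 and 54.8, a difference of 1.27 at day 1. Hoxb5os had 11.7, 15 and 62.9, a difference of 0.81 at day 2, and Hoxa11os stayed at or below 13.5.

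Regulators of the clusters were read from fixed lists, which were chosen with earlier results of these data known. The Cdx and ParaHox list had 1 of 6 genes at least 2-fold higher at day 2, none lower, and a median difference of 0.35. Cdx2, a driver of trophectoderm and an activator of posterior Hox genes, had 152 at day 0, 856 at day 1 and 828 at day 2. It was higher by 2.14 at day 1 and 2.09 at day 2, with both later days far above day 0. Cdx1 had 35.7, 17.5 and 74.0 (difference 0.50), and Cdx4 had 17.2, 28.5 and 18.4 (difference 0.02). The TALE list, cofactors that bind DNA together with Hox proteins, had 0 of 8 genes past 2-fold in either direction and a median of 0.25.

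In the Polycomb list, 4 of 16 measured genes were at least 2-fold lower at day 2 and 1 higher, with a median of -0.22. Of all genes, 4.3% were lower and 4.05% higher, which is the background for each list here. The lower genes were Phc1 at -2.59, Eed at -1.49, Jarid2 at -1.19 and Pcgf2 at -1.09, and the higher was Phc2 at 1.44. Phc1, Phc2 and Pcgf2 are subunits of Polycomb complex 1, Eed is a core subunit of complex 2 and Jarid2 helps recruit it. The calls of Eed and Pcgf2 were lost under 1 alternative each, at -0.72 as a mean over probe sets and -0.93 with the constant at the 60th percentile. Among Trithorax proteins and H3K27 demethylases, which act against Polycomb, 2 of 10 were higher, Kmt2a at 1.06 and Kdm6b at 1.03, and none lower, with a median of -0.07. Both lie at the edge of the rule, past 2-fold in 8 and 7 of 11 settings, and as means over probe sets they were 0.71 and 0.54. In the retinoic acid list, 0 of 13 were higher and 3 lower, with a median of -0.06. These were the receptor genes Rarg at -2.34 and Rxrg at -1.02 and the binding protein Crabp1 at -1.32. Rxrg was -0.53 and Crabp1 -0.92 with the constant at the 60th percentile, and Rxrg was -0.67 with a floor. Rxra was counted at -0.06, and the highest of its 3 probe sets was at 1.19.

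Other homeobox families give a scale for these changes. Of 6 Iroquois genes, 2 were at least 2-fold higher at day 2, Irx3 at 2.67 and Irx2 at 1.32, with a median of 0.59. Of 6 Dlx genes, 1 was, Dlx3 at 2.08, a gene of placenta and surface ectoderm, with a median of 0.51. Neither family had a gene at least 2-fold lower. The Hox set had 2 of 33 higher and a median of 0.08. With 1 array per day these differences between families were not tested.

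**Figure D4:**
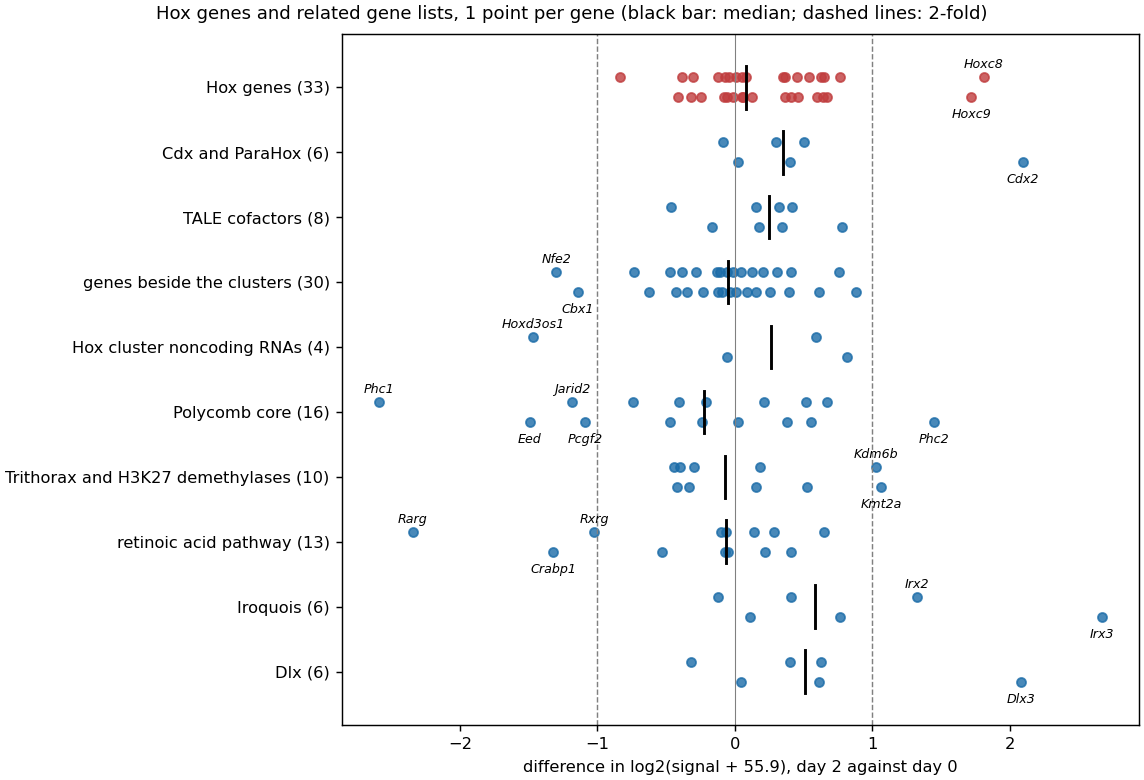
Log2 difference for day 2 against day 0 of each measured gene among the Hox genes and the comparison lists, with the median of each as a black bar and the 2-fold lines dashed. The Hox median is 0.08, the Polycomb median -0.22 and the neighbours' median -0.05.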

How the data were processed

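The deposited values are linear array intensities, 1 per probe set and array. The submitters' processing notes name MAS5, and the sources used here do not give its version. The deposited table holds 45101 probe sets, of which 64 had a value at day 2 only and were left out. Per the platform annotation 34945 of the rest name 1 gene, 932 several and 9160 none. Of the first, 34741 matched the GRCm38.p6 gene table by Entrez identifier.

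Arrays were scaled to a common 2% trimmed mean, 498 on each as deposited. No filter on dim probe sets was used. Genes were named in full where a probe set reached the 60th percentile of signals, 151, or a pair of days differed 2-fold. Of the lists of regulators, neighbours and other homeobox genes, members past 2-fold at day 2 and the Cdx genes were named. Cell type markers were counted, and the markers, neighbours and noncoding RNAs named beyond this rule were chosen after their values were seen. The members and lists were chosen with earlier results of these data known. No test was possible with 1 array per day. Alternatives were other constants, 3 scalings, a filter, other rules for probe sets and, added after seeing the data, a floor and a looser filter. The counting was checked on simulated data, with changes larger than 2-fold planted only in genes brighter than any Hox gene. That check does not cover calls in the dim range. Python 3.11.15, pandas 2.3.3 and numpy 2.4.6 were used.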

Additional observations from a re-analysis of the deposited data

How the results depend on the processing

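Hoxc8 and Hoxc9 were at least 2-fold higher at day 2 than at day 0 under all 10 alternatives, between 1.01 and 2.79 for Hoxc8 and between 1.08 and 2.29 for Hoxc9. Each has 1 probe set, of none of the _x_at, _s_at and _a_at types, with a mean signal above the constant. The filters and the other rules for probe sets therefore could not change their values. The deposited arrays already had nearly equal trimmed means, so leaving out the scaling could change little. All alternatives use the same arrays. Other counts moved with the constant. At the 20th percentile of signals, 6 Hox genes were higher and 1 lower at day 2 against day 0 (all genes 8.84% and 8.08%), 6 higher and 2 lower at day 1 against day 0 (6.89% and 5.33%), and 6 lower at day 2 against day 1 (6.75%). At the 60th percentile, 0 were higher at day 1 against day 0, 1 was higher and 0 were lower at day 2 against day 1. For day 1 against day 0, 1 was higher, Hoxb9, after quantile normalization (all genes 1.68%), with equal ribosomal protein medians (1.34%) and with a floor. Hoxb9 was also the 1 higher gene with only genes whose mean signal reached the constant (2.4% of all genes kept). That filter left 0 lower at day 2 against day 1 (2.65% of all genes kept). It gave medians for day 2 against day 0 of 0.58 over all 10 Hox genes left, 0.65 for HoxB (1 gene), 1.72 for HoxC (3) and 0.41 for HoxD (1). Keeping genes that reached the constant on at least 1 array gave 0.47 over 18 Hox genes, 0.65 for HoxB and 0.995 for HoxC. Both filters let genes in through their high day. Without probe sets of the _x_at, _s_at and _a_at types the HoxA median was -0.12, and with a floor the HoxC median was 0.00. With a floor the 1 gene lower at day 2 against day 1 was Hoxb9 and not Hoxd9. The floor and the looser filter were chosen after seeing the data. No scaling moved the median of all genes by 0.1 or more. No paired analysis was possible because there is 1 array per day. Of 48 Hox probe sets, 29 lay below the constant on all arrays, where changes of signal are hard to tell from background. Precision is limited by the number of arrays.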

Other observations

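Some probe sets name a pair of Hox genes and gave no gene a value. The first for Hoxd4 and Hoxd3 gave 57.7, 70.5 and 19.7 on days 0, 1 and 2, and another for the same pair had 6.90, 3.10 and 2.90. The probe set for Hoxb8 and Hoxb7 had 36.8, 16.7 and 21.4. All were lower at day 2 than at day 0, and only the first passed the constant of 55.9, at day 0 and day 1.

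Among genes of the comparison lists, Dhrs3, a retinaldehyde reductase that retinoic acid induces, had 11.8 at day 0, 75.9 at day 1 and 8.60 at day 2, a peak at day 1 like those of Hoxb9 and Hoxd9. Cyp26a1, which breaks down retinoic acid, had 52.6, 137 and 70.3. Of the 13 genes in the retinoic acid list, 3 were highest at day 1, Dhrs3 and Cyp26a1 among them, and 4 were lowest there. Of all genes, 31.2% were highest at day 1. Rarb, of the same list, was higher at each step, with 19.4, 39.2 and 44.0. Hoxb1, a direct target of retinoic acid, was lowest at day 1, with 49.9, 5.80 and 29.1. Mixl1, a gene of the primitive streak, had 11.7, 75.3 and 18.0. Dhrs3, Cyp26a1 and Mixl1 were picked out after their values were seen, each rests on 1 probe set, and a shared course was not tested. All day 1 values come from 1 array.

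Primitive endoderm markers had a summed signal of 498, 1085 and 1161 over the 3 days, with 2 of 4 genes, Gata6 and Dab2, at least 2-fold higher at day 2, though a Gata6 probe set was at -0.36. The others were lower at each step, Gata4 with 76.0, 59.4 and 41.9 and Sox17 with 86.2, 69.7 and 61.9. Trophectoderm markers summed to 7099, 10381 and 44759, and without the keratin genes Krt8 and Krt18 to 600, 1968 and 1791, with Eomes at -0.32 for day 2 against day 0. Mesoderm markers summed to 397, 366 and 235 and neural markers to 1211, 1232 and 659. Both sums lean on 1 gene, Meox1 with 130, 31.9 and 12.0 and Tubb3 with 1017, 1116 and 577. For day 2 against day 0, 2 of 5 mesoderm markers and 0 of 4 neural markers were above 0.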
